A study of Mus musculus with 2343 samples.

Results

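The medullary chemokines followed here are 9 secreted ligands that thymic epithelial cells can make: Ccl21a, Ccl21c, Ccl19, Ccl17, Ccl22, Ccl27a, Ccl5, Ccl2 and Cxcl10. They were chosen by name from a table of unadjusted read counts with 45317 gene rows, and all 9 had a row. In bulk mTEChi libraries, the medullary epithelial cells with high surface MHC class II, Ccl21c was 7.36-fold higher in ZsGpos than in WT cells, and Ccl27a was 2.76-fold lower. Ccl5 was 4.38-fold lower in ZsGpos than in ZsGneg cells. These calls are from edgeR's quasi-likelihood test, by which no other member was called in bulk. DESeq2, a second count test, also called Ccl21a, Ccl5 and Cxcl10 between ZsGpos and WT cells.

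Chemokines bind receptors on migrating cells and set where those cells gather. In the thymus, positively selected thymocytes gain Ccr7 and Ccr4 and move from the cortex to the medulla, where medullary epithelium presents self-antigens. Ccl21 and Ccl19 are the ligands of Ccr7, and Ccl17 and Ccl22 are those of Ccr4. Signals from the TNF receptor family that act through NF-kB, and interferon signals, are known to raise several of these genes in epithelium.

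The study asked what Polycomb repressive complex 2 (PRC2), which places the repressive mark H3K27me3, does in thymic epithelium, and its target Eed is a core PRC2 subunit. All groups carry floxed Eed. WT mTEChi cells came from the strain Eedflfl::ZsGreen, which names no Cre. ZsGneg and ZsGpos mTEChi cells came from Eedflfl::ZsGreen::beta5tCre mice, in which Cre follows beta5t (Psmb11), a gene of cortical cells and of early medullary precursors, and they were sorted as negative or positive for the ZsGreen reporter. Single cortical cells (cTECs) were WT, strain Eedflfl, or Eed, strain Eedflfl::beta5tCre. The reporter marks cells with a history of Cre. Eed stood at 29.9 to 51.5 CPM (counts scaled to a common library total) in WT, 49.4 to 97.9 in ZsGneg and 17.1 to 85.8 in ZsGpos bulk units, which overlap, and counts over a whole gene need not show a deletion of part of it. Among single cells 54.7% of WT, 56.8% of ZsGneg and 36.1% of ZsGpos mTEChi cells had an Eed count, as did 48.1% of WT and 39.5% of Eed cTECs. The labels give no age, sex or animal for any sample, and the p-values reflect spread among samples alone, which may be technical.

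Ccl21a lies beside near-identical copies, and the sequences below show how little separates them. Ccl21a (chromosome 4, 42772860 to 42773991, GRCm38) and the predicted gene Gm10591 (chromosome 4, 42612123 to 42613253) differed at 2 of 150 aligned bases just before their starts, with Gm10591 set back by 1 base, in the RefSeq promoter table of GRCm38.p6. The substitutions are T42C and T44C, counted from 1 at the 5′ end of the printed Ccl21a stretch, and capitals mark them. The Ccl21a stretch is chr4:42773992-42774141, minus strand, and the Gm10591 stretch is chr4:42611972-42612121, plus strand.
Ccl21a: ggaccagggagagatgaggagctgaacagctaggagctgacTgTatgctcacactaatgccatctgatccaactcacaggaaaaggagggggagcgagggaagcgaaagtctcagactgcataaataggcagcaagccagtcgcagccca
Gm10591: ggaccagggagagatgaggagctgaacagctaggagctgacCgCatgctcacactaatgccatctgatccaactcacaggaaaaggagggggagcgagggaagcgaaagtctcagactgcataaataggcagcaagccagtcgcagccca
Over the whole aligned window before the starts, 99.2% of bases were the same. For Ccl21b, another copy, 32.8% were. Its listed span is far longer than those of the others (chromosome 4, 42173120 to 42256825). Its window may thus lie away from the copy itself, and the low share need not mean a diverged promoter. The window of another predicted gene, Gm13304 (chromosome 4, 42114787 to 42115917), was identical to that of Gm10591. Ccl21c had no window, and transcripts were not compared. Reads from near-identical genes can be split among the rows or set aside as not unique, so Ccl21a and Ccl21c values are treated as uncertain one by one, and their sum with the copies is given beside them.

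A promoter window was found for 6 of the 9 members: Ccl21a, Ccl19, Ccl17, Ccl22, Ccl27a and Cxcl10. Cxcl10 is shown because its window holds 2 of the 3 motifs searched, an ISRE letter pattern (GAAANNGAAA) and NF-kB patterns (GGGNNNNNCC), both searched on both strands and here in capitals. The stretch is chr5:92348973-92349112, minus strand.
Cxcl10: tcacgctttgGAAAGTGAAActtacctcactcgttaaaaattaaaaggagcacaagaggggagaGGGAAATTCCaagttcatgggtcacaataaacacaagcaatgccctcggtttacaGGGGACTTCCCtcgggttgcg
The last run of capitals holds 2 overlapping NF-kB matches. Among 32851 windows of the same length, 3.44% held the ISRE pattern, 50.8% the NF-kB pattern and 8.30% a GAS pattern (TTCNNNGAA). Of the 6 members, 2 held ISRE (Ccl19 and Cxcl10), 4 held NF-kB (Ccl19, Ccl22, Ccl27a and Cxcl10) and 1 held GAS (Ccl17). A match describes letters and is not evidence of binding.

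Bulk libraries were made from pools of about 1000 sorted cells. There were 4 ZsGpos, 4 ZsGneg and 9 WT libraries, and the WT libraries were summed by title number to 3 units. They held 10519116 to 14990893 gene counts each, and all 9 members passed the filter on low counts. The mitochondrial share of gene counts ran from 9.15 to 14.9% in ZsGpos, from 5.54 to 7.83% in ZsGneg and from 7.23 to 7.74% in WT units. The 4 Y-linked genes Ddx3y, Eif2s3y, Kdm5d and Uty stood at 0.0568 CPM or less in WT units 1 and 2, ZsGneg library 4 and ZsGpos library 4, and at 13.7 CPM or more in the other 7 units, so the sexes were not balanced between the groups. Calls are therefore also given with this split as a covariate and without the libraries numbered 04, both chosen after seeing the data. Levels are CPM, counts scaled to the same total of gene counts in each library, which are not corrected for transcript length and are compared only within a gene.

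Medullary identity was checked on a list of mature mTEC genes, all 8 of which had counts in each group. Their summed level was 14380 to 17052 CPM in ZsGpos, against 29057 to 45349 in ZsGneg and 21928 to 28797 among WT. A sum follows its most abundant genes, and the median log2 difference from WT over the 8 genes was -0.62 in ZsGpos and 0.01 in ZsGneg. The 5 immature mTEC genes summed to 1791 to 2323 CPM in ZsGpos, against 990.3 to 1613 in ZsGneg and 736.2 to 823.4 among WT. For 9 cTEC genes the sums were 852.4 to 1268 CPM in ZsGpos, 921.1 to 1108 in ZsGneg and 1326 to 1601 among WT. In bulk samples, fewer cells of a type and less RNA per cell cannot be told apart.

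Ccl21 is the chief Ccr7 ligand of the medulla and draws selected thymocytes into it. Ccl21c stood at 10.4, 9.37 and 13.2 CPM in the WT units, at 42.8, 44.9, 34.9 and 10.2 in ZsGneg and at 107.3, 78.4, 89.3 and 59.3 in ZsGpos. Each ZsGpos library was above each ZsGneg library and each WT unit, while ZsGneg library 4 fell within the WT range. Ccl21c rose in ZsGpos against WT by 2.88 on the log2 scale (SE 0.54, 95% interval 1.71 to 4.05, adjusted p = 0.0349). In that comparison 0.38% of the 18931 genes tested were called, and 2 of the 9 members were. Against WT, the ZsGneg difference was 1.60 (SE 0.51, adjusted p = 0.302), and ZsGpos against ZsGneg gave 1.28 (SE 0.46, adjusted p = 0.163).

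Ccl21a spread more widely within ZsGpos. It had 1.48, 0.869 and 1.4996 CPM in WT, 7.54, 6.72, 5.70 and 2.22 in ZsGneg, and 13.3, 21.7, 4.78 and 4.56 in ZsGpos. Neither ZsGneg nor ZsGpos overlapped WT, and they overlapped each other. The ZsGpos difference from WT was 3.04 on the log2 scale with an SE of 1.40 (adjusted p = 0.555).

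The 6 rows Ccl21a, Ccl21b, Ccl21c, Gm10591, Gm13304 and Gm21541 were summed because reads may be shared among them. The sum was 12.96, 11.2 and 16.3 CPM in WT, 56.1, 58.7, 46.2 and 15.1 in ZsGneg, and 126.2, 102.8, 98.5 and 68.1 in ZsGpos. ZsGpos again lay above both other groups without overlap, and ZsGneg library 4 lay within WT. Summed counts rose in ZsGpos against WT by 2.82 (SE 0.49, adjusted p = 0.0229), with 1.71 for ZsGneg against WT (adjusted p = 0.275) and 1.11 for ZsGpos against ZsGneg (adjusted p = 0.176). Reads set aside as not unique were 5.22 to 6.04% in ZsGpos, 7.19 to 9.08% in ZsGneg and 5.53 to 5.80% in WT, and their part in the Ccl21 values was not tested.

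The Ccl21c call did not hold with any WT unit left out (adjusted p = 0.181 to 0.208) or any ZsGpos library left out (0.0624 to 0.0915), although the log2 difference stayed between 2.77 and 3.03. It also did not hold with a covariate for the fraction of reads that fell outside genes (log2 3.37, adjusted p = 0.138) or for Y-linked expression (log2 2.46, adjusted p = 0.0666). Krt5, a keratin of basal and immature medullary epithelium, moved alongside Ccl21c, at 123.01 ± 14.9 CPM in WT, 303.6 ± 101.05 in ZsGneg and 806.2 ± 122.6 in ZsGpos (SD, n = 3, 4 and 4). It rose in ZsGpos against WT (log2 2.66, adjusted p = 0.000872) and against ZsGneg (log2 1.35, adjusted p = 0.00539). Of the 5 immature mTEC genes, 3 were called higher in ZsGpos against WT and 1 against ZsGneg. Their median log2 difference between ZsGpos and ZsGneg was 0.199, beside 0.138 over all genes tested. The list as a whole thus did not show the Krt5 step between ZsGneg and ZsGpos. The part of immature cells in the Ccl21 result was not tested. Summed fibroblast markers were also higher in ZsGpos (218.7 to 396.6 CPM) than in WT (95.1 to 181.7), with 106.1 to 384.4 in ZsGneg. The 5 tuft cell markers summed to 117.3 to 257.3 CPM, against 67.3 to 112.1 in WT and 31.6 to 137.995 in ZsGneg. For ZsGpos against WT, the median log2 difference was 1.22 over the fibroblast genes but -0.26 over the tuft genes. Most tuft markers were thus lower, and the higher sum rested on fewer genes. Stromal cells can make Ccl21, Ccl19 and Ccl2, and the part of either cell type in those levels was not tested.

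**Figure D1:**
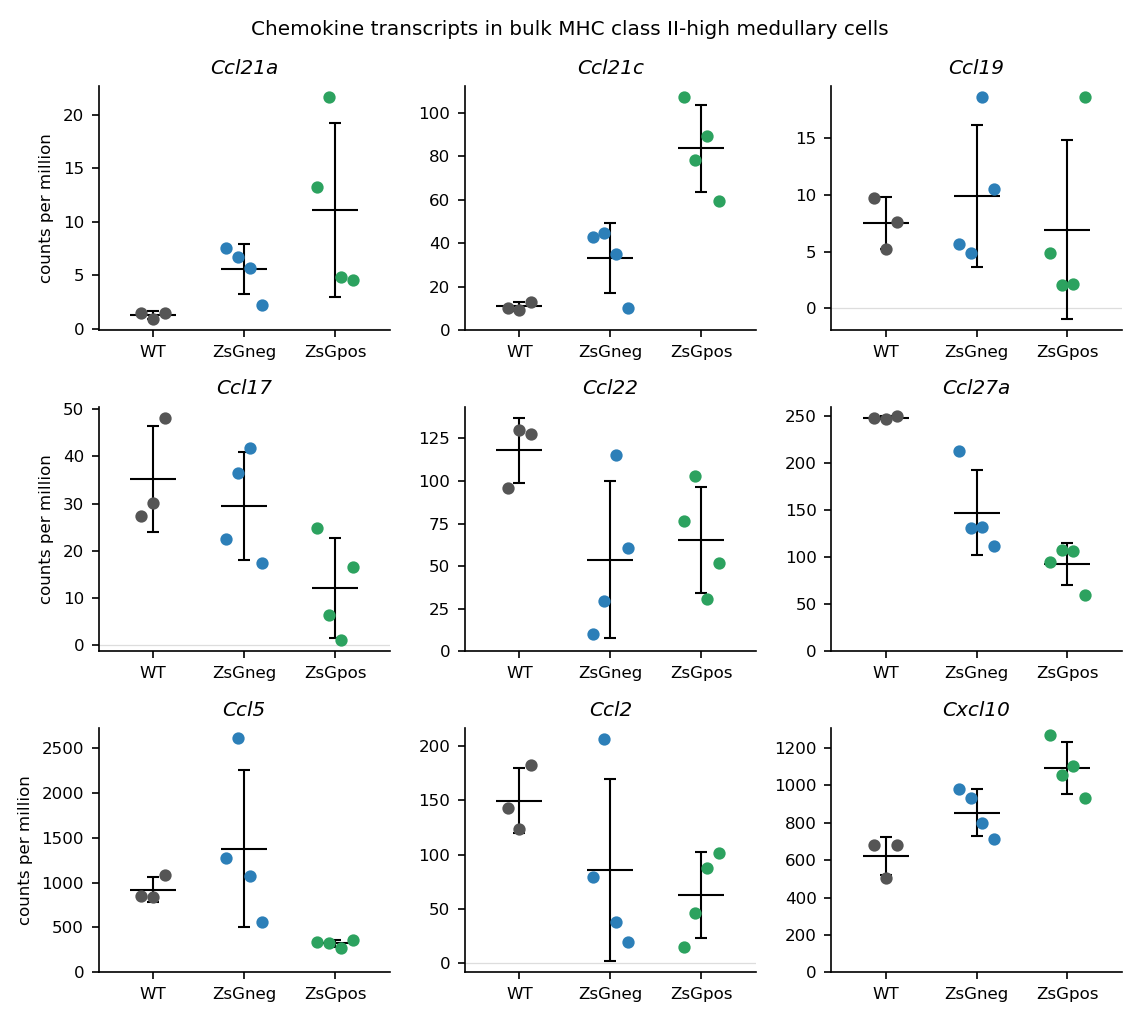
CPM (y axis) of each chemokine in the bulk units of WT, ZsGneg and ZsGpos mTEChi cells (x axis); each point is a unit, the horizontal line the group mean and the bar the SD. Ccl21c lay between 59.3 and 107.3 in ZsGpos, above all other units, while Ccl5 lay between 273.1 and 362.2 in ZsGpos, below all other units.

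Ccl19, the other Ccr7 ligand, showed no such separation. It had 9.75, 5.19 and 7.64 CPM in WT, 5.63, 4.91, 18.6 and 10.5 in ZsGneg, and 4.88, 2.03, 2.17 and 18.6 in ZsGpos. ZsGneg library 3 and ZsGpos library 4 stood highest, and the groups overlapped. The ZsGpos difference from WT was -0.17 with an SE of 1.21 (adjusted p = 1.00), so a change of either sign of over 4-fold lay within its 95% interval of -2.78 to 2.43.

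Ccl27a, a ligand of Ccr10 made by keratinocytes and other epithelia, had near-equal levels in the WT units. These were 247.5, 247.1 and 249.9 CPM, against 213.2, 131.4, 132.4 and 111.98 in ZsGneg, and 95.4, 107.7, 106.4 and 60.2 in ZsGpos. All ZsGneg and ZsGpos libraries were below WT, and each ZsGpos library was below each ZsGneg library. Ccl27a fell in ZsGpos against WT by 1.47 on the log2 scale (SE 0.28, 95% interval -2.06 to -0.87, adjusted p = 0.0342). The ZsGneg difference from WT was -0.74 (SE 0.28, adjusted p = 0.362) and that between ZsGpos and ZsGneg -0.73 (SE 0.26, adjusted p = 0.161).

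Summing hid part of the WT spread, since the 9 single WT libraries ranged from 214.96 to 308.4 CPM for Ccl27a, still above the highest ZsGneg library. The call was lost with RLE size factors (adjusted p = 0.0576), with the covariate (0.432), with title number as a replicate block (0.0856) and without the libraries numbered 04 (0.0721). It was also lost without any 1 WT unit (0.125 to 0.196) and without ZsGpos library 1 (0.0915), 2 (0.0760) or 4 (0.0833). It held with the Y-linked covariate (log2 -1.68, adjusted p = 0.0293).

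Ccl5, which attracts T cells and myeloid cells, set ZsGpos cells apart from both other groups. It stood at 844.7, 835 and 1081 CPM in WT, at 1268, 2602, 1077 and 566 in ZsGneg, and at 342.1, 324.98, 273.1 and 362.2 in ZsGpos. The ZsGpos values were close together and below all others, and ZsGneg spread on both sides of WT. Ccl5 fell in ZsGpos against ZsGneg by 2.13 on the log2 scale (SE 0.33, 95% interval -2.84 to -1.43, adjusted p = 0.00341). Of the 18931 genes, 2.66% were called in that comparison, and Ccl5 was the 1 member called of 9.

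Against WT the ZsGpos difference in Ccl5 was -1.55 (SE 0.34, adjusted p = 0.0722), and for ZsGneg against WT it was 0.58 (SE 0.34, adjusted p = 0.722). The call against ZsGneg held without each of the 11 units in turn (adjusted p = 0.000861 to 0.0158). It was lost with the outside-gene covariate (log2 -1.63, adjusted p = 1), and that fraction was 31.2 to 35.9% in ZsGpos and 18.9 to 24.04% in ZsGneg. The fraction did not overlap between these groups, and with it edgeR called 0 of the 18931 genes. The loss is thus not particular to Ccl5, and group and fraction cannot be told apart. Myeloid and dendritic markers, of cells that also make Ccl5, Ccl17 and Ccl22, summed to 296.8 to 678.1 CPM in ZsGpos, against 319.1 to 1228 in ZsGneg and 336.2 to 517.9 among WT. Thymocyte markers summed to 96.2 to 287.1 CPM, 85.5 to 111.8 and 42.4 to 73.9 in the same order, and the part of either cell type in these results was not tested.

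Cxcl10, an interferon-induced ligand of Cxcr3, went the other way. It had 680.9, 507.1 and 680.0 CPM in WT, 981.9, 931, 797 and 711 in ZsGneg, and 1269, 1057, 1105 and 934 in ZsGpos. All ZsGneg and ZsGpos libraries were above WT, but the difference did not pass the test, at 0.76 in ZsGpos relative to WT (SE 0.17, adjusted p = 0.0800) and 0.47 for ZsGneg against WT (SE 0.17, adjusted p = 0.344). Cxcl9 and Cxcl11, the other Cxcr3 ligands, gave 0.43 (adjusted p = 0.787) and -0.05 (adjusted p = 1.00) for ZsGpos against WT.

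Ccl17 and Ccl22, the Ccr4 ligands, were both lower on average in ZsGpos than in WT, and neither passed the test. Ccl17 had 27.4, 30.2 and 48.1 CPM in WT, 22.5, 36.4, 41.8 and 17.5 in ZsGneg, and 24.9, 6.33, 1.08 and 16.5 in ZsGpos, so ZsGpos lay below WT without overlap (log2 -1.62, SE 0.82, adjusted p = 0.628). Ccl22 had 95.9, 129.97 and 127.7 CPM in WT, 10.3, 29.4, 115.2 and 60.5 in ZsGneg, and 76.6, 102.9, 30.7 and 52.001 in ZsGpos. ZsGpos library 2 was inside the WT range for Ccl22 (log2 -0.91, SE 0.61, adjusted p = 0.864).

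Ccl2, which recruits monocytes through Ccr2, varied over 10-fold within ZsGneg. Its levels were 142.97, 123.4 and 182.6 CPM in WT, 79.2, 206.4, 38.4 and 19.7 in ZsGneg, and 15.1, 46.2, 87.9 and 101.4 in ZsGpos. All ZsGpos libraries were below WT, and ZsGneg lay on both sides of it (log2 -1.28, SE 0.69, adjusted p = 0.694 for ZsGpos against WT).

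Over the 9 members the median log2 difference was -0.91 for ZsGpos against WT, 0.43 for ZsGneg against WT and -0.46 for ZsGpos against ZsGneg, beside -0.05, -0.15 and 0.14 over all genes tested. No member was called between ZsGneg and WT by edgeR, where 0.0423% of all genes were. At an unadjusted p under 0.05, 3 members passed there, as did 10.1% of all genes. DESeq2 called 1 member there, Ccl21c (adjusted p = 0.0462), and 2.73% of all genes. For ZsGpos against WT, DESeq2 called 5 members and 2.86% of all genes. Of the 8 genes that edgeR called between ZsGneg and WT, 7 were higher in ZsGneg, and with RLE size factors 8 of 8 were.

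**Figure D2:**
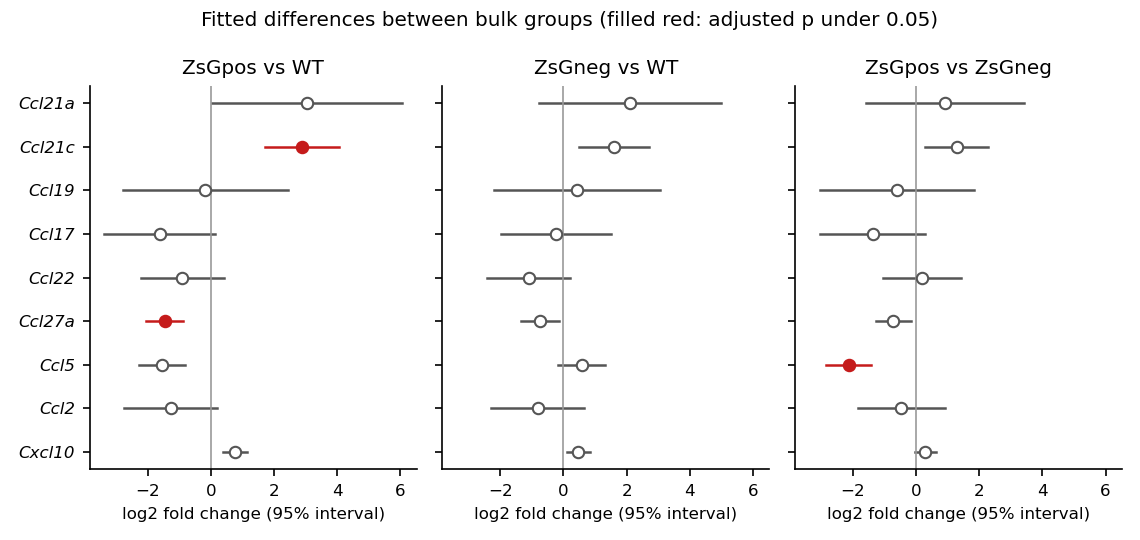
Fitted log2 fold changes (x axis, with 95% intervals) of the 9 chemokines (y axis) in the 3 bulk comparisons, with filled red points at an adjusted p under 0.05. The called points are Ccl21c at 2.88 and Ccl27a at -1.47 for ZsGpos against WT, and Ccl5 at -2.13 for ZsGpos against ZsGneg.

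The other genes of the chemokine system were given as fixed lists. Of 29 other chemokine ligands, 28 were tested, and 1 passed in any comparison: Ccl1, a ligand of Ccr8, fell from 71.03 ± 43.2 CPM in ZsGneg to 7.58 ± 7.47 in ZsGpos (SD, n = 4 each; log2 -3.31, adjusted p = 0.0430). Their median log2 difference was -1.01 for ZsGpos against WT, where none was called. None of the 17 tested receptors of 21 listed was called in any of the 3 comparisons, with 1, 0 and 1 at an unadjusted p under 0.05, beside 8.94, 10.1 and 18.3% of all genes. Among 23 upstream regulators, which include the NF-kB and interferon pathways, Aire and Fezf2, 1 was called: Cd40, a TNF receptor family member that raises NF-kB activity in medullary cells, fell from 271.4 ± 56.9 CPM in ZsGneg to 151.1 ± 23.6 in ZsGpos (log2 -0.92, adjusted p = 0.0421). Beside the 2.66% of all genes called in that comparison, 1 of 28 ligands and 1 of 23 regulators are close to the background.

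Small pools of 100 mTEChi cells gave a second, shallower reading. The plate with 3 wells of each group held 10332 to 180374 gene counts per well, and 4 members passed the filter there: Ccl19, Ccl5, Ccl27a and Cxcl10. None was called by edgeR or DESeq2 for ZsGpos against WT, where 2.74% of the 731 genes tested were called by edgeR, nor for ZsGneg against WT (0.547%) or ZsGpos against ZsGneg (3.69%). Ccl27a and Cxcl10 were under an unadjusted p of 0.05 between ZsGpos and ZsGneg, and Ccl27a between ZsGpos and WT, where 18.2 and 18.3% of the genes tested were.

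Ccl27a had 35.6, 387.1 and 1074 CPM in the WT wells, 149.4, 1433 and 742.5 in ZsGneg and 133.1, 205.8 and 14.5 in ZsGpos. The groups overlapped, and the difference was -1.94 in ZsGpos relative to WT (SE 0.89, adjusted p = 0.246) and -2.47 against ZsGneg (SE 0.88, adjusted p = 0.144). Ccl5 had 106.9, 290.4 and 278.5 CPM in WT, 149.4, 292.2 and 232.02 in ZsGneg and 310.5, 360.1 and 174.1 in ZsGpos. Here Ccl5 in ZsGpos stood within or above the other groups (log2 0.58 against ZsGneg, SE 0.56, adjusted p = 0.616), while in the bulk libraries it lay below them. A further 3 WT pools lay on plate SCGC1379 and 3 ZsGpos pools on plate SCGC1381, where plate and group cannot be told apart, and they entered no test. There Ccl5 had 642.1, 648.01 and 152.4 CPM in WT, and 67.4 and 46.01 in 2 ZsGpos pools of 103891 and 43465 gene counts (the latter of 70 cells), below each WT pool. Ccl21a had 0, 38.6 and 0 CPM in those WT pools, and 182.9 and 115.03 in the same 2 ZsGpos pools. The other ZsGpos pool held 68 gene counts and no count of a member. Ccl21a and Ccl21c did not pass the filter, with 6 of the 9 wells of the tested plate at 0 for Ccl21a.

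In single cells each of the 5 groups counts as 1 sample, because no label ties a cell to an animal, and no test between groups was made. Cells were kept with at least 50000 gene counts, 1000 genes and at most 30% mitochondrial counts. Of the wells sorted with 1 cell, 57.5% of WT, 68.7% of ZsGneg and 40% of ZsGpos mTEChi and 70.3% of WT and 85.7% of Eed cTEC wells passed. Median depths were 289904, 311908 and 310277 gene counts in the mTEChi groups and 539290 and 516499 in the cTEC groups. The mTEChi cells lay on 4 plates that each held the 3 groups, but plate SCGC1381 kept only 2 ZsGpos cells (1.42% of its wells). Aire, the defining mature mTEC gene, had a count in 89.5, 87.3 and 78.2% of WT, ZsGneg and ZsGpos mTEChi cells and in 4.81 and 0.912% of WT and Eed cTECs. Psmb11, the defining cTEC gene, had a count in 63.3% of WT cTECs but in only 9.42% of Eed cTECs. Values in brackets are 95% intervals, exact Poisson for levels and exact binomial for shares, and cover counting error only, since amplified reads are not independent molecules.

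Ccl21a was detected in 21.4% of WT cells (16.8 to 26.6), 23.6% of ZsGneg cells (19.1 to 28.6) and 48.6% of ZsGpos cells (41.8 to 55.5). Its summed level was 4.72 CPM in WT, 6.54 in ZsGneg and 11.7 in ZsGpos. Detection was highest in ZsGpos cells on each of the 4 plates, while the level was higher than in WT on 3 of 4. Both counts include plate SCGC1381, where 1 of 2 ZsGpos cells had a count. After thinning each cell to 100000 gene counts the shares were 14.8, 18.2 and 39.2%. In cTECs, which should lack the gene, 8.15% of WT cells and 2.74% of Eed cells had a count, falling to 3.76 and 0.613% after thinning.

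Ccl21c followed the same order. It was detected in 18.6% of WT cells (14.3 to 23.6), 23.9% of ZsGneg cells (19.4 to 28.96) and 43.1% of ZsGpos cells (36.4 to 49.9), at 3.28, 4.07 and 7.599 CPM. ZsGpos stood 2.32-fold above WT and was higher on 4 of 4 plates, which met the rule for a named difference (at least 2-fold, same direction on all plates). On plate SCGC1381 the ZsGpos level of 12.2 CPM (3.96 to 28.5) came from 5 counts in 1 of 2 cells. The WT cells of plate SCGC1373 had 10.4 CPM, against 1.27, 2.88 and 0.789 on the other plates, so the ratio was 3.58 without that plate and 1.78 without plate SCGC1381. In ZsGpos 1 cell held 21.2% of the Ccl21c counts. Without the top cell of each group the ratio was 2.21, but ZsGpos was no longer higher on all plates, so the rule was not met.

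A count in any of the 6 Ccl21 rows was found in 31.6% of WT, 37.6% of ZsGneg and 66.2% of ZsGpos cells. By plate, the ZsGpos shares were 64.2, 65.8 and 68.2% on the 3 plates with over 50 cells, beside 41.7, 39.2 and 34.5% of WT and 23.5, 47.7 and 58.8% of ZsGneg cells on the same plates. ZsGpos was the highest on each of them.

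Cells with a Ccl21 count differed from the others in the same group. Krt5 had a count in 72.2% of Ccl21-detected WT cells (61.8 to 81.1) and in 35.9% of the undetected ones (29.2 to 43.1). The same pair was 73.6 and 46.3% in ZsGneg and 91.6 and 63.01% in ZsGpos. Aire had a count in 85.6 against 91.3% in WT, 81.8 against 90.5% in ZsGneg and 74.8 against 84.9% in ZsGpos. For Ccl19 the pair was 91.1 and 75.9% in WT, and for Ccl17 it was 3.33 and 11.3%. Median depths were 272880 and 300064 gene counts in WT, 330002 and 278948 in ZsGneg, and 322064 and 258606 in ZsGpos, so the Ccl21-detected cells were the shallower ones in WT and the deeper ones in ZsGneg and ZsGpos.

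Within cells, Ccl21a and Ccl21c correlated at r = 0.78 in WT, 0.78 in ZsGneg and 0.69 in ZsGpos on log2(CPM + 1), a description over cells whose copies may share reads. The genes most like Ccl21a among 9788 compared in WT cells were CT868723.2 (r = 0.83), Gm10591 (0.75) and Wfikkn2 (0.61), and those most like Ccl21c were Gm10591 (0.80), CT868723.2 (0.75) and Wfikkn2 (0.60). In bulk, CT868723.2 had 5.37, 3.90 and 6.58 CPM in WT, 28.2, 31.2, 27.7 and 17.7 in ZsGneg and 23.7, 25.5, 16.3 and 15.5 in ZsGpos. ZsGneg and ZsGpos were above WT without overlap, and no comparison passed the test (log2 1.88 for ZsGpos against WT, adjusted p = 0.397).

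**Figure D3:**
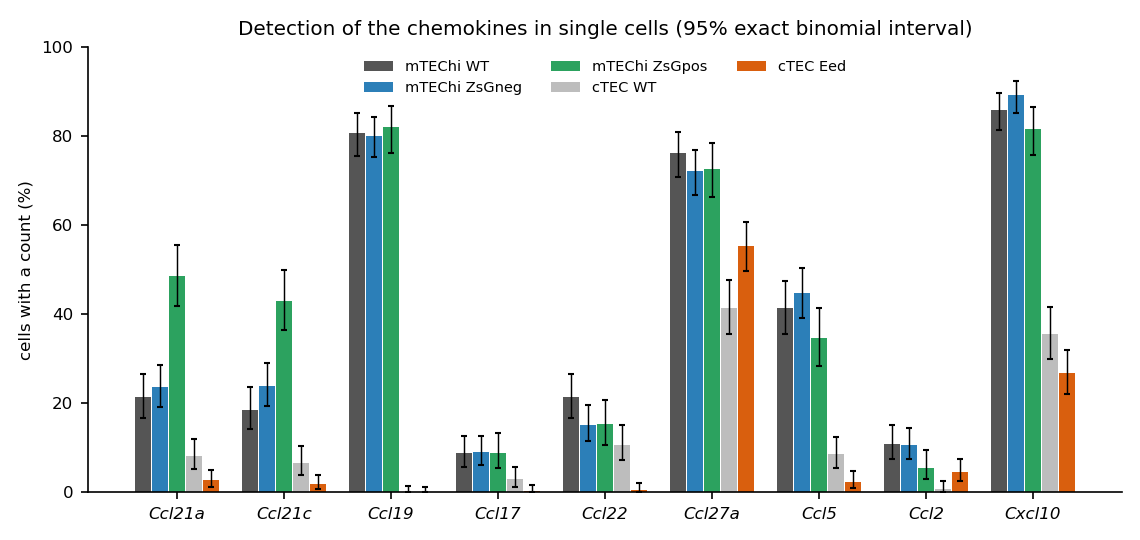
Share of single cells with at least 1 count (y axis, %, bars from 0, with exact 95% binomial intervals) for each chemokine (x axis) in WT, ZsGneg and ZsGpos mTEChi cells and WT and Eed cTECs. Ccl21a reached 48.6% in ZsGpos cells against 21.4% in WT, and Ccl19 was at 0 in both cTEC groups.

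Ccl19 had a count in most single medullary cells of each group. It was detected in 80.7% of WT, 80.1% of ZsGneg and 81.9% of ZsGpos cells, at 22.4, 23.2 and 26.2 CPM. No cTEC had a count: 0 of 270 WT cells allows a share of up to 1.11%, and 0 among the Eed cells up to 0.912%, both set as 3 cells of the total. The exact binomial upper limits, drawn in the plot of detection, are 1.36 and 1.11%. Rows CR974586.3 (r = 0.60), Gm12407 (0.59) and CR974586.5 (0.58) were most like it in WT cells, and whether they share sequence with Ccl19 was not tested.

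Ccl27a was detected in 76.1% of WT, 72.05% of ZsGneg and 72.7% of ZsGpos mTEChi cells, and in 41.5% of WT and 55.3% of Eed cTECs. Its summed level was 166.4, 69.2 and 82.001 CPM in the mTEChi groups and 6.94 and 9.25 CPM in the cTEC groups. ZsGpos was thus 2.03-fold below WT, lower on 3 of 4 plates and higher on plate SCGC1380 (142.6 against 82.1 CPM). One of the lower plates was SCGC1381, where the 2 ZsGpos cells had no count (0 to 9.01 CPM). That plate could hardly have shown the other direction. Plate SCGC1373 held the highest WT level, 422.3 CPM, and without it the gap was 1.43-fold. The share of WT counts held by 1 cell was 21.9%, and of ZsGpos counts 29.2%. Without each group's top cell ZsGpos was 2.25-fold below WT and lower on all plates, which met the rule, while as a mean of the cells' CPM it was 1.09-fold above WT (161.9 against 149.2).

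Ccl5 had a count in 41.4% of WT (35.6 to 47.4), 44.7% of ZsGneg (39.2 to 50.3) and 34.7% of ZsGpos cells (28.4 to 41.5). Its level was 131.1, 242.9 and 97.97 CPM. By plate the ZsGpos level was 364.98, 32.5 and 55.9 CPM on plates SCGC1373, SCGC1379 and SCGC1380, against 167.5, 101.6 and 117.4 in ZsGneg and 171.95, 85.1 and 63.2 in WT. ZsGpos was the highest group on plate SCGC1373 and the lowest on the other 2. On plate SCGC1381 the 2 ZsGpos cells had no count, and ZsGneg cells stood at 661 CPM. Without plate SCGC1373 the level was 41.1 CPM in ZsGpos, against 266.05 in ZsGneg and 122.4 for WT, and without plate SCGC1381 it was 98.5, 125.2 and 96.03 CPM, so the gap to ZsGneg was 6.48-fold without the first plate and 1.27-fold without the second. The small pools in which Ccl5 was not lower were also on plate SCGC1373. The ZsGpos pools in which it was lower were on plate SCGC1381, and the WT pools they were set against on plate SCGC1379. Plate and group cannot be told apart there, and neither plate held ZsGneg pools.

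**Figure D4:**
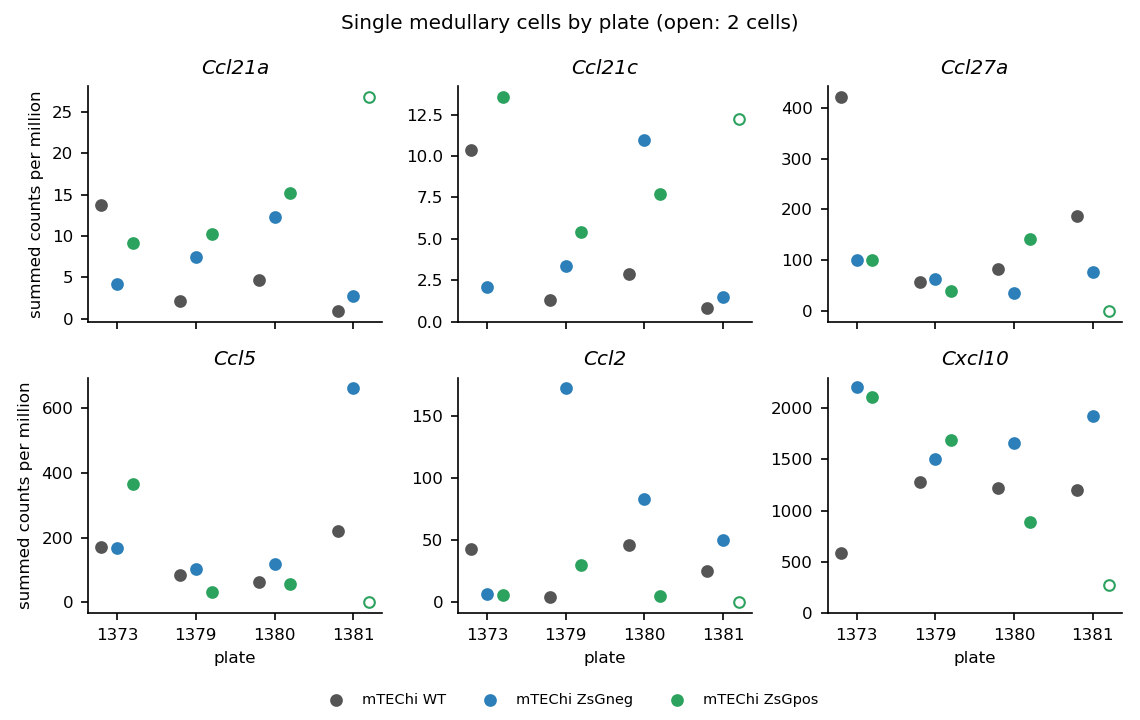
Summed CPM (y axis) of 6 chemokines in single WT, ZsGneg and ZsGpos mTEChi cells on each of 4 plates (x axis); open points stand for the 2 ZsGpos cells of plate SCGC1381. Ccl5 in ZsGpos was 364.98 on plate SCGC1373, and 32.5 and 55.9 on plates SCGC1379 and SCGC1380.

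Ccl2 was rare, in 10.9% of WT, 10.6% of ZsGneg and 5.56% of ZsGpos cells, at 31.1, 89.7 and 17.7 CPM. ZsGpos was 5.08-fold below ZsGneg and lower on 4 of 4 plates, which met the rule for a named difference. On plate SCGC1373 the values were 5.65 (4.42 to 7.12) and 6.39 CPM (5.43 to 7.47), whose intervals overlap. On plate SCGC1381 the 2 ZsGpos cells had no count (0 to 9.01 CPM), and 3.70% of ZsGneg cells had one. That plate could hardly have shown the other direction. In ZsGneg 1 cell held 37.0% of the counts, and in ZsGpos 1 cell held 43.8%. As a mean of the cells' CPM the gap was 3.25-fold and the rule was not met. Among cTECs, Ccl2 stood at 0.0944 CPM in WT (0.0503 to 0.161) and 20.9 CPM in Eed cells (20.2 to 21.6), where 15 cells had a count and 1 cell held 37.5% of the counts.

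Cxcl10 was found in most medullary cells, 85.96% of WT, 89.1% of ZsGneg and 81.5% of ZsGpos, at 1118, 1789 and 1507 CPM. ZsGneg exceeded WT on 4 of 4 plates by 1.60-fold over all, and ZsGpos exceeded WT on 2 of 4. It was also found in 35.6% of WT and 26.7% of Eed cTECs. Of 585 mTEChi wells with under 10000 gene counts, 21.5% had a count, a higher background than for any other member. Wells of cTECs were left out of this count, so their background was not measured. The gene most like it was Cxcl11, also interferon-induced, with r = 0.54 in WT, 0.49 in ZsGneg and 0.59 in ZsGpos cells.

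The Ccr4 ligands were carried by few cells. Ccl22 was detected in 21.4% of WT, 15.2% of ZsGneg and 15.3% of ZsGpos cells, and Ccl17 in 8.77, 9.01 and 8.80%. A Ccl22 count was found in 44% of the 25 Ccl17-detected WT cells (24.4 to 65.1) and in 19.2% of the others (14.6 to 24.6). The same pair was 51.7 and 11.6% in ZsGneg and 31.6 and 13.7% in ZsGpos. The levels rested on single cells, since 1 WT cell held 55.03% of the Ccl22 counts and 1 ZsGpos cell 60.8% of the Ccl17 counts. In WT cTECs, 99.8% of Ccl22 counts lay in 1 cell, and the level was 238.97 CPM with it and 0.430 without it.

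The size rule was applied to the members alone, so no share over all genes stands beside the count that follows. Over all 27 pairs of member and mTEChi comparison, 2 met the rule for a named difference, Ccl21c in ZsGpos against WT and Ccl2 in ZsGpos against ZsGneg. Each counts plate SCGC1381 among the 4 plates, with 2 ZsGpos cells there. Both rest on choices about single cells: without each group's top cell the Ccl21c pair gave way to Ccl27a in ZsGpos against WT, and with the mean of the cells' CPM the Ccl2 pair gave way to Ccl21a in ZsGpos against ZsGneg. The bulk fall of Ccl27a in ZsGpos against WT and of Ccl5 in ZsGpos against ZsGneg had the same direction in the summed single cells, at 2.03-fold and 2.48-fold lower, but neither held on all 4 plates over all cells, and the Ccl5 gap ranged with a plate left out from 1.27-fold (SCGC1381) to 6.48-fold (SCGC1373).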

How the data were processed

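The deposited table holds the authors' unadjusted read counts per gene, per the labels. HTSeq, HISAT 0.1.6, BWA 0.5.9, MACS2, FastQC, Trimmomatic and build mm10 appear, without roles, per the submitters' processing notes. RNA was polyadenylated and amplified by SMART-seq2, per the labels' protocols. No molecular identifiers are named, so counting intervals cover counting error only. ERCC rows (92) and unassigned rows (5) stayed out of library sizes, and 24 of 2343 samples without a column, among them the H3K27me3 ChIP libraries, were not analysed here. The RefSeq window table was matched by symbol.

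Bulk and pool counts were fitted over 3 groups at once with edgeR 4.0.16 in R 4.3.3 (filterByExpr, TMM, quasi-likelihood test, Benjamini-Hochberg over all genes tested, threshold 0.05). The procedure was tested on simulated data. CPM and single-cell summaries used Python 3.11.15 and scipy 1.17.1. All 9 members were named. Genes of the other lists were named where past the threshold, and likeness named the 3 highest Pearson correlations of log2(CPM + 1) for members with a count in at least 50 WT cells. Single cells that passed were 285 WT, 322 ZsGneg and 216 ZsGpos mTEChi cells and 270 WT and 329 Eed cTECs. CT868723.2, Krt5, Cxcl9, Cxcl11 and Eed were added for context. Members and lists were chosen with earlier results of these data known.

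Alternatives were RLE size factors, no filter on low counts, DESeq2 1.42.0, fits of 2 groups, 9 separate WT libraries, a covariate (share of reads outside genes), Y-linked expression, title number as a block, units or plates left out, summed Ccl21 rows, and other cell filters. Over all groups, same-numbered units gave r = -0.0208 to 0.018 (10 pairs), beside -0.0184 to 0.0183 for 30 pairs of different number, and numbers were not taken as pairs. WT units came from another strain. Between ZsGneg and ZsGpos, same-numbered libraries gave r = 0.0127, 0.0081, 0.0040 and 0.0181, and those of each number matched in Y-linked expression. These values do not settle whether same-numbered ZsGneg and ZsGpos libraries share animals.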

Additional observations from a re-analysis of the deposited data

Results flagged for a closer look

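Of 14 wells labelled as holding no template, 3 on plate SCGC1380 had counts of the chemokines and met the cell filter. Well A1 held 51838 gene counts, of which 11 were chemokine counts (5 Ccl19 and 6 Cxcl10). Well A2 held 73567 gene counts, with 30 chemokine counts (24 Ccl21a, 3 Ccl21c and 3 Ccl19). Well A3 held 67466 gene counts, with 78 chemokine counts (44 Ccl19 and 34 Ccl27a). They drew attention because such wells should hold no RNA. The other 11 wells did not meet the filter and held 1 chemokine count in all. None of these wells entered a comparison. Among 18 groups of 4 bulk libraries, 1 for each chemokine in ZsGneg and in ZsGpos, no library stood apart from the rest by Dixon's test, which by chance marks about 1 group in 20.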

How the results depend on the processing

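For ZsGpos against WT in bulk, the 2 chemokine calls became 1 with RLE size factors, 4 without the filter on low counts, 5 with DESeq2, 4 with 9 separate WT libraries, 0 with the covariate, 1 with title number as a replicate block, 1 without the libraries numbered 04, 1 with Y-linked expression as a covariate, and 0 to 3 with a unit left out. The share of all tested genes called, 0.38%, became 0.831% without the filter, 2.86% with DESeq2, 0.678% with 2 groups fitted, 1.67% with 9 WT libraries, 0.037% with the covariate, and 0.044 to 0.50013% with a unit left out. For ZsGneg against WT, DESeq2 called 1 chemokine, and the share of genes called, 0.0423%, became 0.368%, 2.73%, 0.00583%, 0.768% and 0% in the same order (edgeR called 0 with the covariate and found 917 genes at an unadjusted p under 0.05), 0.00528% with the block or with the Y-linked covariate, and 0 to 0.0269% with a unit left out. For ZsGpos against ZsGneg, the 1 chemokine call became 0 with the covariate, and the share of genes called, 2.66%, became 2.42% without the filter (837 genes of a larger number tested), 10.5% with DESeq2, 0% with the covariate (edgeR, 825 genes at an unadjusted p under 0.05), 1.2004% without the libraries numbered 04, and 1.65 to 2.73% with a unit left out. The cause was not tested. Ccl21c was called in 11 of 20 alternatives and Ccl27a in 12 of 22 for ZsGpos against WT, and Ccl5 in 21 of 22 for ZsGpos against ZsGneg, each time in the same direction. For ZsGpos against WT, Ccl5 was called in 6 of 22 alternatives, without ZsGneg library 2 (adjusted p = 0.0148) or 4 (0.0185) among them, Cxcl10 in 3 of 22 and Ccl21a in 3 of 22. The Ccl21a row by itself was called only with DESeq2. Its other calls were of summed Ccl21 rows (edgeR adjusted p = 0.0270 for Ccl21a, Ccl21b and Ccl21c, and 0.0229 for all 6 rows).

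In the pools, the chemokine calls for ZsGpos against ZsGneg were 0 to 1 of 4 with a well left out, beside 0 to 4.38% of all genes tested. The 1 call came without ZsGneg well 1, where 3.57% of 925 genes were called. In single cells, 2 of 27 pairs met the size rule, and this became 9 without plate SCGC1373, 6 without SCGC1379, 5 without SCGC1380, 3 without SCGC1381 and 3 with the stricter cell filter. It stayed at 2 without each group's top cell and with the mean of the cells' CPM, each time with 1 of the pairs replaced. The share of all genes that met the size rule was not computed in any setting.

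No called value reversed in bulk. With a unit left out, bulk log2 values that changed sign ranged from -1.38 to 0.13 for Ccl19 in ZsGpos against WT, from -0.0691 to 0.66 for Ccl19 and -0.46 to 0.041 for Ccl17 in ZsGneg against WT, and from -0.16 to 0.87 for Ccl22 and -0.79 to 0.42 for Ccl2 in ZsGpos against ZsGneg. With the replicate block, Ccl19 in ZsGneg against WT was -0.0197. With the covariate, ZsGpos against ZsGneg gave 0.19 for Ccl17 and -1.11 for Ccl22. In the pools with a well left out, Ccl19 ranged from -0.0898 to 1.24 for ZsGpos against WT, from -0.0991 to 1.21 for ZsGneg against WT and from -0.13 to 0.30 for ZsGpos against ZsGneg. Against WT, ZsGneg pools ranged from -0.38 to 0.44 for Ccl5 and from -0.49 to 2.40 for Ccl27a, and Ccl5 was 0.0132 with DESeq2 and 0.48 without the filter.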
